A study of Tetranychus truncatus with 6 samples.

Results

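The 100 most abundant unigenes of whole adult Tetranychus truncatus, a plant-feeding spider mite, are described here across 6 RNA sequencing libraries. They were chosen by their mean level over the 6 libraries, in counts per 1000000 counts of a library (CPM), from the 55272 unigenes of the tables. A unigene is a transcript unit of a sequence assembly and carries a component number in place of a gene name. The abamectin group held 3 libraries (replicates 1 to 3) from mites given abamectin at the concentration lethal to 30%. The control group held 3 libraries (replicates 4 to 6) from mites given 27.5% acetone in water. Both groups came from laboratory breeding and were sampled as adult bodies. For the abamectin group no solvent is recorded, so solvent and abamectin cannot be told apart. The labels do not say whether libraries of a group stem from separate cultures. The p-values below therefore reflect spread between samples that may be technical.

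Abamectin is a macrocyclic lactone that acts on chloride channels gated by glutamate in arthropod nerve and muscle. In RNA from a whole animal a small number of transcripts usually takes a large part of all reads. Transcripts of ribosomes, mitochondria, muscle, cuticle and yolk are commonly among them in arthropods. The unigenes described here were not matched to any of these classes, since no sequence or name was used, and the labelled tissue could not be checked against marker genes. A level per total counts is relative: when 1 dominant transcript takes more of a library, every other level falls without any change in its own number of molecules. Nor can fewer cells of a type and less RNA per cell be told apart in RNA pooled from whole bodies.

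The libraries held 18109230 to 39982117 counts, and 8708 to 9042 unigenes per library exceeded 1 CPM. The smallest count of any of the 100 unigenes in any library was 5486. The Wilson 95% interval of a single share was at most 2.65% of its value on either side. These intervals cover counting error only, and the spread between libraries was far wider.

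The 100 unigenes took 49.0%, 43.7% and 41.9% of the counts in abamectin replicates 1, 2 and 3. In control replicates 4, 5 and 6 they took 45.0%, 50.6% and 42.2%. The groups overlapped. Their means were 44.9% ± 3.71 (SD, n = 3) for abamectin and 46.0% ± 4.28 (SD, n = 3) for control. Most of this belonged to the 3 unigenes of assembly component c30159, which held 33.9%, 27.7% and 24.5% of the counts in the abamectin libraries. In the controls they held 31.3%, 36.8% and 27.5%. The order of the 6 libraries by the share of the 100 was the same as their order by c30159, with control 5 highest and abamectin 3 lowest. The other 97 unigenes together took 15.2%, 16.0% and 17.4% after abamectin and 13.8%, 13.9% and 14.7% in the controls, with no overlap between the groups.

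**Figure D1:**
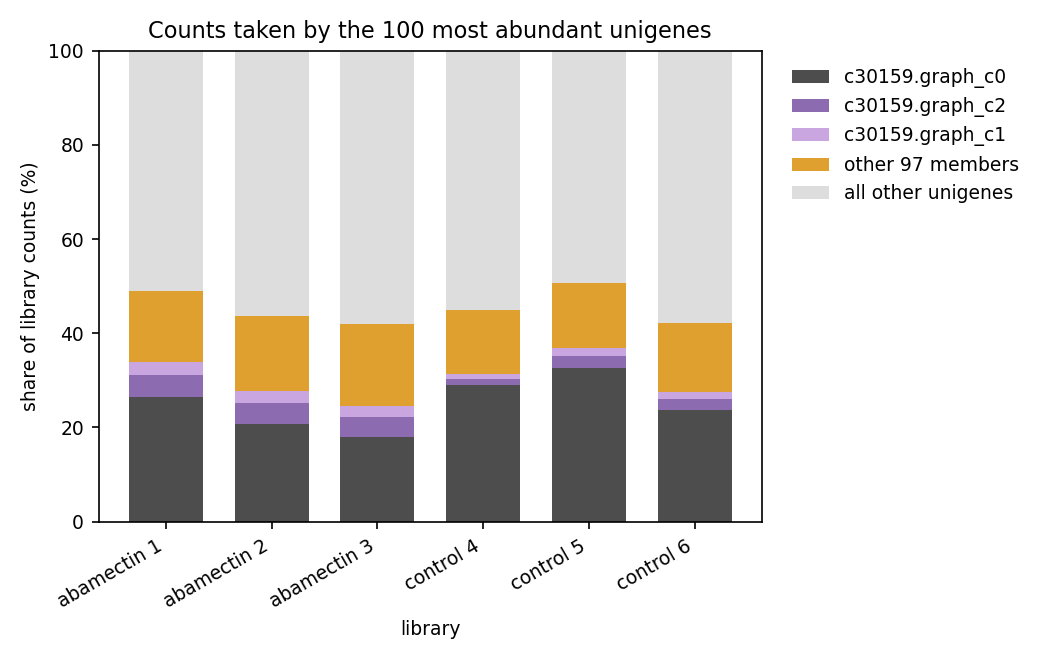
Share of each library's counts (%, bars from 0 to 100) taken by the 3 unigenes of component c30159, by the other 97 of the 100 most abundant unigenes and by all other unigenes, for the 6 libraries. The 100 together span 41.9% to 50.6%, and most of the difference between libraries lies in c30159.graph_c0.

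With component c30159 taken out of the total, the 97 unigenes held 23.0%, 22.2% and 23.1% of the remaining counts in abamectin replicates 1, 2 and 3. In controls 4, 5 and 6 they held 20.04%, 21.9% and 20.3%. The means were 22.7% ± 0.494 (SD, n = 3) and 20.8% ± 1.01 (SD, n = 3), and the groups did not overlap, although control 5 lay close below abamectin 2. The 100 unigenes that follow in rank held 7.73% to 8.31% of the remaining counts after abamectin and 8.48% to 9.14% in the controls. No test is given for these sums, because the members were chosen on the same counts. The concentration of counts on few unigenes depended on c30159: between 84 and 232 unigenes made up 50% of the counts with it, and between 579 and 631 without it.

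Within component c30159 the 3 unigenes did not move together. The unigene c30159.graph_c0 (effective length 9158 nt) was at 264126, 208008 and 179659 CPM after abamectin and at 289372, 327109 and 237449 CPM in the controls. The groups overlapped. The unigene c30159.graph_c2 (5367 nt) was at 46239, 44168 and 42542 CPM after abamectin and at 14486, 24715 and 23109 CPM in the controls. The unigene c30159.graph_c1 (7820 nt) was at 28309, 24385 and 22872 CPM and at 8752, 16038 and 14585 CPM. For both of the latter, each abamectin library lay above each control, with control 4 lowest.

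The ratio of c30159.graph_c2 to c30159.graph_c0 was 0.175, 0.212 and 0.237 after abamectin and 0.0501, 0.0756 and 0.0973 in the controls. This ratio needs no library total, and its lowest abamectin value was above its highest control value. The ratio of c30159.graph_c1 to c30159.graph_c2 varied much less, from 0.538 to 0.649 over the 6 libraries. The unigene of rank 5, c28393.graph_c0 (4411 nt), comes from another component. Its ratio to c30159.graph_c2 stayed between 0.166 and 0.224, while its own level ran from 2672 to 10358 CPM. It was at 10358, 7334 and 7076 CPM after abamectin and at 2672, 4812 and 3909.9 CPM in the controls. These 3 ratios were picked after the values had been seen. No source used here tells how reads that match several unigenes of a component were divided, so the split of counts within c30159 is uncertain.

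The first 3 ranks, all of c30159, were the same in each of the 6 libraries. Below them the order was looser. Mean levels dropped from 19157 CPM at rank 3 to 8086 CPM at rank 4 (c13015.graph_c0), 3972 CPM at rank 10 (c23377.graph_c1) and 1154 CPM at rank 50 (c30520.graph_c0). In all, 55 of the 100 exceeded a mean of 1000 CPM. Between 80 and 90 of the 100 were among the 100 highest of any single library, 58 were so in each library, and 156 unigenes reached the 100 highest of at least 1 library. Lists made from the abamectin libraries alone and from the controls alone shared 78 of their 100 unigenes.

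The rule's edge was narrow. Ranks 98, 99 and 100 (c28837.graph_c0, c30435.graph_c0 and c24864.graph_c2) had mean levels of 719.7, 718.1 and 716.4 CPM. The unigenes just outside (c30619.graph_c0, c27757.graph_c0 and c27397.graph_c0) had 713.4, 713.2 and 712.6 CPM. The difference in rank between a member's highest and lowest library had a median of 33, exceeded 50 in 41 members and reached 369 in c29358.graph_c2. That unigene ranked 390, 229 and 207 in the abamectin libraries and 21, 24 and 104 in the controls.

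Ranks 4 to 10 held both steady and unsteady members. The unigene c13015.graph_c0 (8914 nt) was at 8577, 8635 and 8634 CPM after abamectin and at 7821, 7570 and 7281 CPM in the controls, a step between the groups with little spread in either. The unigene c29623.graph_c0 was at 4268, 3985 and 3920 CPM and at 4991, 4126 and 3916 CPM, with overlapping groups. The unigenes c27869.graph_c1 (3130 to 4779 CPM) and c23377.graph_c1 (3488 to 4694 CPM) also stayed within 1.53-fold over the 6 libraries. In contrast, c23342.graph_c0, the longest member at 10065 nt, was at 8333, 3826 and 3127 CPM after abamectin and at 2781, 5369 and 1949.9 CPM in the controls. Its highest values were in abamectin 1 and control 5, and its groups overlapped.

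Per length the order differed. The deposited FPKM values (fragments scaled by unigene length and by library depth) put 58 of the 100 among the 100 highest unigenes. All 10 of the highest by mean FPKM, and 24 of the highest 25, were members. The lowest FPKM rank of a member was 695. After c30159.graph_c0, the highest mean FPKM belonged to c30518.graph_c0, a short unigene of 436 nt. It was at 7294, 12912 and 14589 FPKM after abamectin and at 10658, 9752 and 13646 FPKM in the controls. Abamectin 1 was lowest, and the groups overlapped. The shortest member, c30520.graph_c0 (206 nt), was of rank 50 by counts and of rank 4 by FPKM. It was at 4780.4, 5874 and 7161 FPKM and at 5569, 6738 and 4979.8 FPKM, with overlapping groups. The unigene c12842.graph_c0 (443 nt) was of rank 5 by FPKM.

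The members were not a class of short transcripts. Their median effective length was 2032 nt, against 1884 nt over the 10204 tested unigenes, and 39.0% were of 3000 nt or more, against 26.4%. Only 5 members were under 500 nt. The next 100 unigenes in rank were longer, with a median of 2720 nt, 45.0% of 3000 nt or more and 1 under 500 nt. CPM is not scaled by length, so a choice by CPM can itself favour long unigenes. The lengths therefore describe the list and show no trait particular to its members. The 100 members came from 97 components. Besides c30159, only c12805 gave more than 1 member. The ratio of c12805.graph_c1 to c12805.graph_c0 was 0.359, 0.331 and 0.330 after abamectin and 0.466, 0.484 and 0.440 in the controls, so each control lay above each abamectin library. Neither of the 2 unigenes passed the test alone, with log2 fold changes of 0.24 ± 0.16 (SE) for c12805.graph_c0 and -0.21 ± 0.14 (SE) for c12805.graph_c1 (edgeR, adjusted p = 0.374 and 0.363). This ratio, too, was picked after it had been seen. As in c30159, the split of counts within c12805 is uncertain.

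Abamectin and control libraries were compared to find members whose level differed with treatment. In edgeR's quasi-likelihood test over all 10204 tested unigenes, 1 of the 100 members rose and 3 fell (adjusted p under 0.05, Benjamini-Hochberg, two-sided). Over all tested unigenes 1.31% rose and 1.75% fell, so these counts lie near the background and say nothing particular of the members. Before adjustment, 21 members were higher and 11 were lower at p under 0.05, or 32.0% of members against 27.6% of all tested unigenes. Changes were mostly small: 79 of the 100 had a log2 fold change within 0.5 in either direction. The median absolute log2 fold change was 0.30 in the members and 0.30 over all tested unigenes.

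The member that rose was c15653.graph_c0 (rank 58, 1031 nt). It was at 1029, 1492 and 1559 CPM after abamectin and at 549, 509.7 and 624 CPM in the controls. The groups lay well apart, with every abamectin library above 1000 CPM. Each control lay below the mean level of rank 100, so the membership of this unigene rests on its abamectin libraries. The change was 2.42-fold (log2 1.27 ± 0.16 SE, edgeR adjusted p = 0.0132). The call was lost without abamectin 2 (adjusted p = 0.0915, edgeR), without control 4 (0.0901) and without abamectin 3 (0.0543). Those fits called 0.0185% to 0.194% of all tested unigenes higher, against 1.31% in the main fit, so the loss is not particular to this member. Over 13 alternatives the adjusted p of c15653.graph_c0 lay between 4.7e-11 and 0.0915, and its log2 fold change between 1.18 and 1.42.

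The 3 members that fell had lower levels in each abamectin library than in any control. Members were chosen by their mean over both groups. In each abamectin library c29358.graph_c2 and c15760.graph_c0 lay below the mean level of rank 100, so their membership rests on their controls. With members chosen by median CPM, 1 was called lower. The unigene c29358.graph_c2 (rank 57, 1205 nt) was at 289, 467 and 519.8 CPM after abamectin and at 1959, 1775 and 796 CPM in the controls, 3.65-fold lower (log2 -1.87 ± 0.38 SE, edgeR adjusted p = 0.0445). The unigene c15760.graph_c0 (rank 61, 1271 nt) was at 396, 466 and 529 CPM and at 1459, 1922 and 817 CPM, 3.12-fold lower (log2 -1.64 ± 0.34 SE, edgeR adjusted p = 0.0471). The unigene c30522.graph_c0 (rank 41, 924 nt) was at 706, 851 and 966 CPM and at 2479, 2336 and 1365 CPM, 2.5-fold lower (log2 -1.32 ± 0.27 SE, edgeR adjusted p = 0.0461). In all 3, control 6 was the lowest control and abamectin 1 the lowest library of all. Each of the 3 lost its call without any 1 of abamectin 1, abamectin 2, abamectin 3 or control 4. The adjusted p was then between 0.108 and 0.227 in edgeR. Those fits called 0.0278% to 0.272% of all tested unigenes lower, against 1.75% in the main fit. The loss of calls is thus not particular to the 3 members. These members also lost the call with a filter of 5 CPM (adjusted p = 0.0556 to 0.0572, edgeR) and with limma-voom (adjusted p = 0.0519 to 0.0565).

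**Figure D2:**
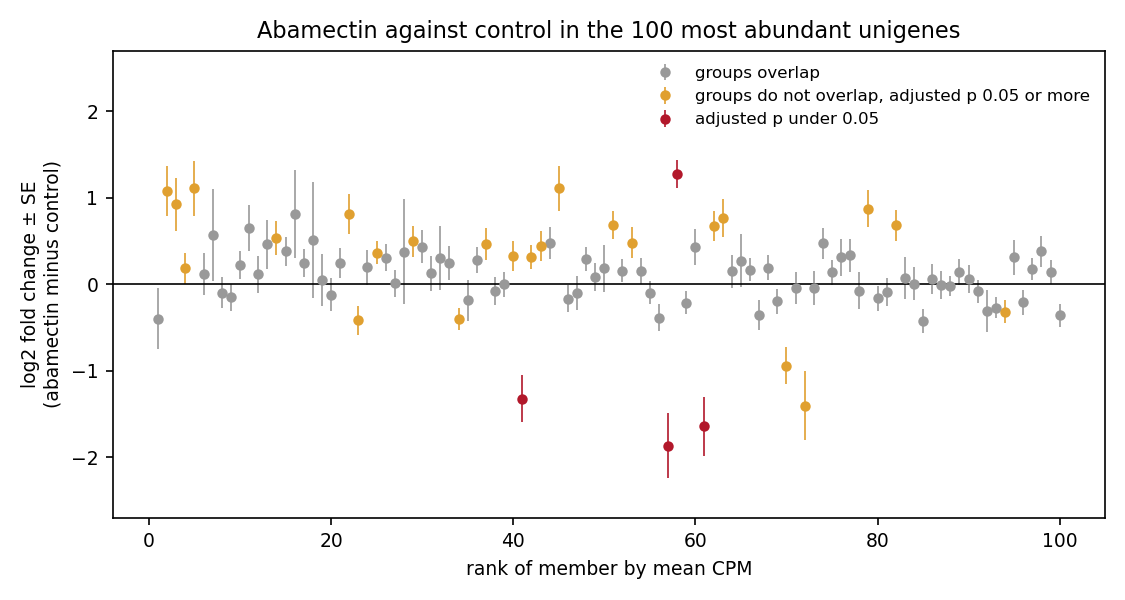
Log2 fold change of abamectin over control (edgeR, with SE) for the 100 most abundant unigenes by rank of mean CPM. The 4 with an adjusted p under 0.05 lie between ranks 41 and 61, and 79 of the 100 lie within 0.5 of 0.

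A pair of further members without overlap, in which control 6 was again the lowest control, missed the threshold. In each abamectin library both lay below the mean level of rank 100, so their membership, too, rests on controls. The unigene c15569.graph_c0 was at 387, 500.2 and 594 CPM after abamectin and at 1387, 1772 and 608 CPM in the controls (log2 -1.40 ± 0.40 SE, edgeR adjusted p = 0.0837). Its lowest control and highest abamectin library nearly met. The unigene c29835.graph_c0 was at 510.2, 646 and 666 CPM and at 1216, 1316 and 907 CPM (log2 -0.94 ± 0.21 SE, edgeR adjusted p = 0.0583).

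On the higher side, 4 members had a fitted change of at least 2-fold, and c15653.graph_c0 was the only one called. The unigene c22999.graph_c2 (rank 45, 6281 nt) was at 1801, 1729.5 and 1784 CPM after abamectin and at 723, 1055 and 633 CPM in the controls. Its abamectin libraries lay close together and its controls were spread (log2 1.11 ± 0.26 SE, edgeR adjusted p = 0.0626). The log2 fold change was 1.11 ± 0.32 (SE) for c28393.graph_c0 (edgeR adjusted p = 0.0835), whose values are given above with c30159. For c30159.graph_c2 the log2 fold change was 1.08 (edgeR adjusted p = 0.0773). For c30159.graph_c1 it was 0.93, under 2-fold (edgeR adjusted p = 0.108). Without control 5, both of these, c28393.graph_c0 and c22999.graph_c2 passed, with adjusted p of 0.0227, 0.0345, 0.0244 and 0.00974 (edgeR). In that fit 10.1% of all tested unigenes were called higher. The gain of calls is thus not particular to c30159.graph_c2, c30159.graph_c1, c28393.graph_c0 and c22999.graph_c2. All 4 also passed with no filter and with DESeq2, and without abamectin 2 their adjusted p ran from 0.251 to 0.298 (edgeR). The largest member, c30159.graph_c0, had a log2 fold change of -0.40 ± 0.35 (SE) and did not pass (edgeR adjusted p = 0.513).

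**Figure D3:**
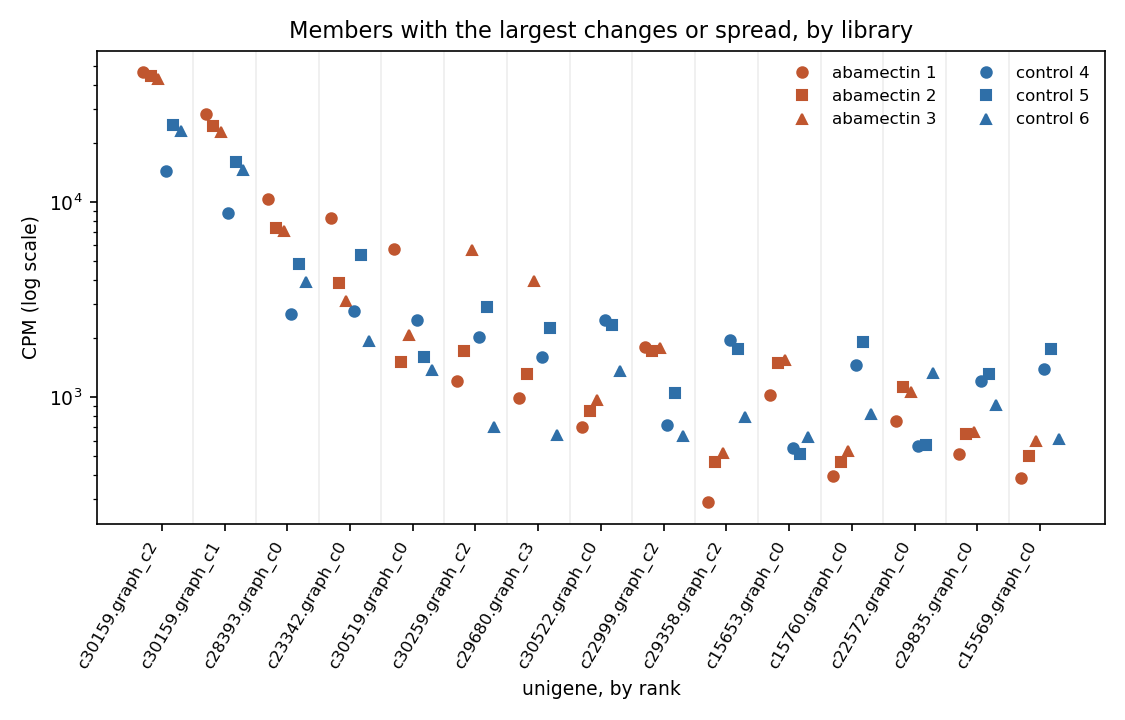
CPM (log scale) in each of the 6 libraries for the members with the largest changes or the largest spread, ordered by rank. For c29358.graph_c2, c15760.graph_c0 and c30522.graph_c0 the 3 abamectin libraries lie below the 3 controls, with control 6 nearest to them, and for c30259.graph_c2 and c29680.graph_c3 the extremes are abamectin 3 and control 6.

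The direction of the members as a whole depended on whether c30159 was counted in the library total. With all counts in the total, 20 of the 100 had every abamectin library above every control and 8 had every abamectin library below. Over all tested unigenes these shares were 16.5% and 12.4%. For the 97 members outside c30159 the split was 18 above and 8 below. With c30159 left out of the total it was 15 above and 20 below, and over all tested unigenes 13.5% above and 18.4% below. With TMM scaling it was 25 above and 15 below among the 100, and 16.7% and 15.5% over all tested unigenes. Of the 97, 14 were above and 8 were below with both totals, and 0 changed from above to below. By group means, 64 of the 97 were higher after abamectin with all counts in the total and 57 without c30159, with median log2 ratios of 0.16 and 0.08. In the edgeR fit the median log2 fold change was 0.16 over the 100 members and -0.015 over all tested unigenes.

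The unigene c13015.graph_c0 shows the effect of the total. In CPM of all counts its groups did not overlap. In CPM without c30159 it was at 12969, 11936 and 11437 after abamectin and at 11378, 11975 and 10044 in the controls, and its groups overlapped. The fitted log2 fold change of c13015.graph_c0 was 0.19 with c30159 in the table and 0.17 without it (edgeR adjusted p = 0.540 and 0.571). In c15653.graph_c0 the total made little difference: without c30159 it was at 1556, 2063 and 2065 CPM after abamectin and at 799, 806 and 860.4 CPM in the controls.

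**Figure D4:**
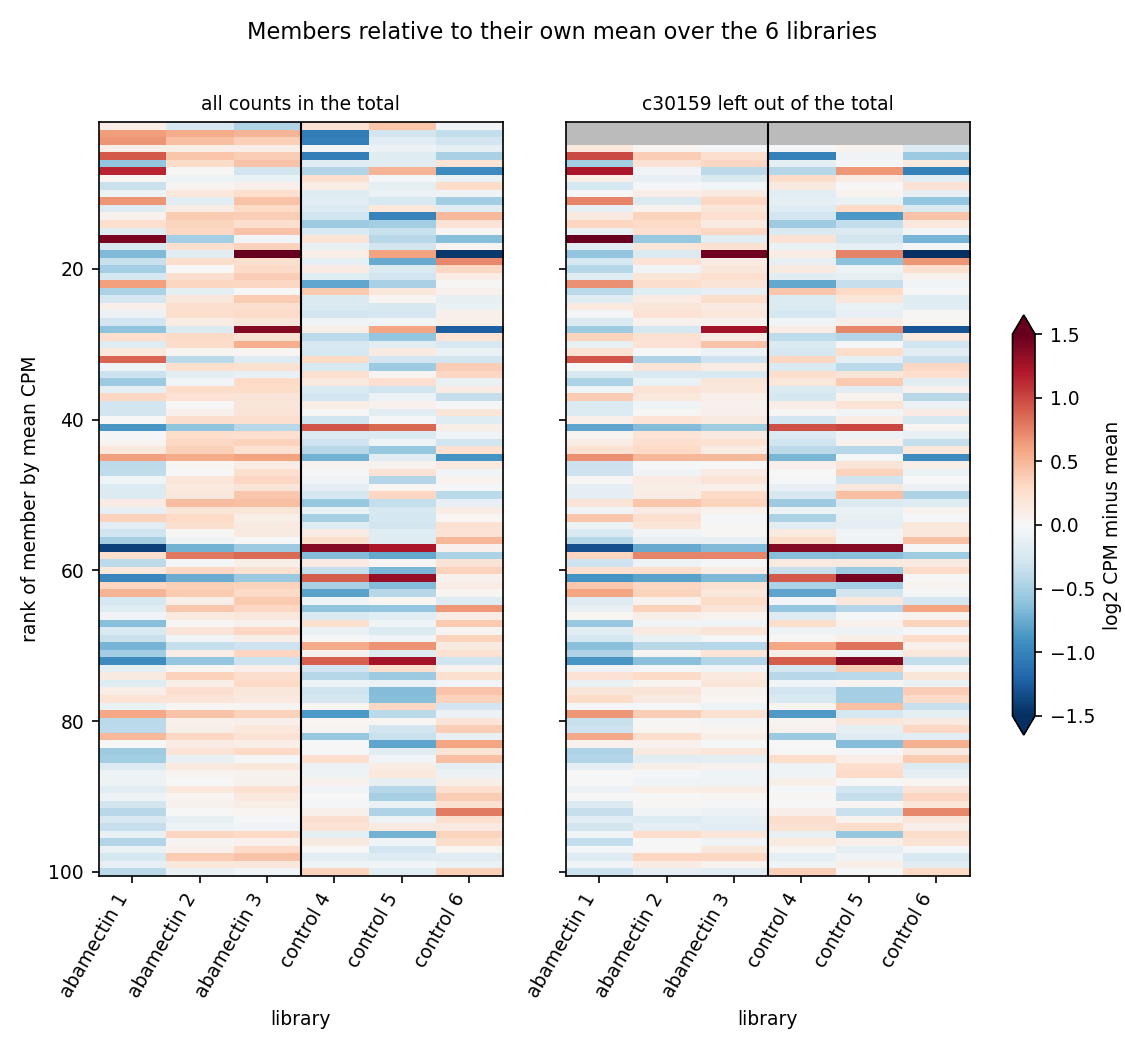
Log2 CPM of the 100 members (rows, by rank) in the 6 libraries, each relative to its own mean over the libraries, with all counts in the library total (left) and with component c30159 left out (right, its 3 rows in grey). Colours end at 1.5 in either direction. The most strongly coloured rows, such as those of c29358.graph_c2 (rank 57) and c30259.graph_c2 (rank 18), look alike in both panels.

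In the 97 members the median spread within the abamectin group also depended on c30159, while that within the controls hardly changed. The coefficient of variation (CV, SD over mean) of CPM in the 97 members had a median of 14.5% within the abamectin group and 15.0% within the controls. Without c30159 in the total the medians were 9.98% and 15.3%. Over all tested unigenes they were 11.3% and 23.8% with c30159, and 10.5% and 21.8% without. The control CV was the larger in 51 of the 97 members with all counts in the total and in 62 without c30159, against 76.5% and 76.7% of all tested unigenes. Between their highest and lowest library, 33 of the 100 differed by over 2-fold and 30 by at most 1.5-fold, with a median of 1.71-fold. Over all tested unigenes with counts in each library the median was 1.90-fold. The steadiest were c12970.graph_c0, from 683 to 798 CPM, c29381.graph_c0, from 703 to 833 CPM, and c13015.graph_c0, from 7281 to 8635 CPM.

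**Figure D5:**
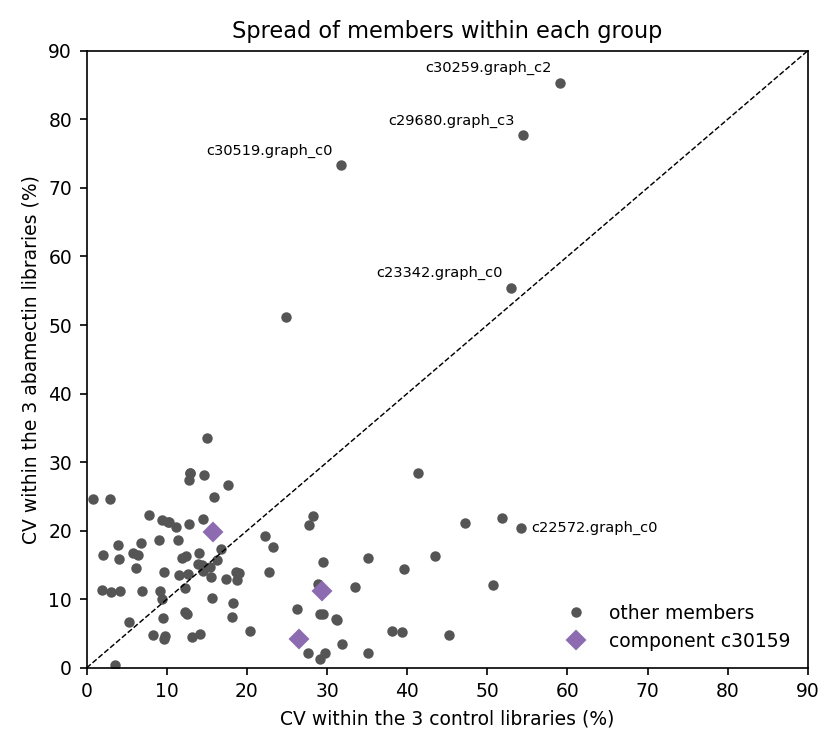
Coefficient of variation of CPM within the 3 abamectin libraries against that within the 3 control libraries (%), for each of the 100 members, with component c30159 as diamonds and a dashed line of equality. The horizontal axis is the control group. Most points crowd the lower left, and the highest on the vertical axis are c30259.graph_c2 (85.3%), c29680.graph_c3 (77.7%) and c30519.graph_c0 (73.4%). On the horizontal axis c30259.graph_c2 is also the highest (59.1%).

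In the 3 members with the largest spread within abamectin, a single library stood far above the other abamectin libraries. The unigene c30259.graph_c2 (rank 18) was at 1209, 1717 and 5681 CPM after abamectin and at 2046, 2913 and 700.4 CPM in the controls, an 8.11-fold range with abamectin 3 highest and control 6 lowest. Its CV within the controls, 59.1%, was also the largest of the members, so its wide spread was not confined to the abamectin group. The unigene c29680.graph_c3 (rank 28), of another component, followed it: it was at 996, 1309 and 3939.8 CPM and at 1613, 2276 and 642 CPM. The ratio of c29680.graph_c3 to c30259.graph_c2 stayed between 0.694 and 0.917. The unigene c30519.graph_c0 (rank 16) was at 5719, 1512 and 2093 CPM and at 2477, 1614 and 1378 CPM, so that abamectin 1 alone stood out.

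By library, 39 of the 100 members were lowest in abamectin 1, 26 in control 5 and 20 in control 4. Highest were 32 in abamectin 3 and 28 in control 6. Abamectin 1 and control 5 were the libraries with the most c30159, and abamectin 3 and control 6 those with the least of their groups. With c30159 left out of the total, 36 of the 97 were still lowest in abamectin 1, while 16 were lowest and 20 highest in control 5. Within the abamectin group alone, abamectin 1 was the lowest library for 81 of the 100 members, and for 67 of the 97 without c30159. No shares over all tested unigenes are given for these counts by library. They therefore cannot show whether the pattern is particular to the members or common to the whole library.

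Differences of at least 2-fold between controls 5 and 6 were somewhat less frequent in the members than over all tested unigenes. Whether the shares differ was not tested. Control 6 was at least 2-fold above control 5 in 8 members, against 13.4% of all tested unigenes. It was at least 2-fold below in 6 members, against 9.4% of all tested unigenes. The 8 were c27961.graph_c0, c12842.graph_c0, c28834.graph_c0, c22572.graph_c0, c23348.graph_c0, c23341.graph_c0, c27666.graph_c0 and c13414.graph_c0. Of these, c27961.graph_c0 had the widest ratio, 2.81, and was at 1950.2, 1197 and 3368 CPM in controls 4, 5 and 6 and at 2508, 3134 and 3105 CPM after abamectin. The 6 were c23342.graph_c0, c30259.graph_c2, c29680.graph_c3, c29358.graph_c2, c15760.graph_c0 and c15569.graph_c0. They include 2 of the 3 members that fell after abamectin.

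The tables also hold a second readout that the choice of members did not use. Dividing CPM by FPKM gives, up to a constant factor, the effective length of each unigene in each library. Effective length is in general the transcript length less an allowance for the length of the sequenced fragments. Relative to the median of the 6 libraries, effective lengths differed by -37.5 nt in control 4 and -35.1 nt in control 6. They differed by 2.17 nt in control 5 and by -2.05, 10.4 and 2.66 nt in abamectin 1, 2 and 3. These offsets are medians over 4038 tested unigenes with at least 10 FPKM in each library, and in control 4 their quartiles were -38.2 and -36.4 nt. Controls 4 and 6 thus stood apart from the other 4 libraries by a nearly constant number of bases. The part of this offset in any difference between libraries was not tested. The offset weighs most on FPKM of the shortest members. For c30520.graph_c0 the abamectin and control means were 1245 and 1064 CPM, and 5939 and 5762 FPKM.

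After this offset was removed, the effective length was the same in all libraries within 2% for 83 of the 100 members. It ranged over more than 10% in 6 members, against 8.4% of the compared unigenes. These 6, named after their values were seen, were c29243.graph_c1, c22553.graph_c0, c23309.graph_c1, c28984.graph_c0, c30435.graph_c0 and c24864.graph_c2. In c24864.graph_c2 it was 1930.2, 1913 and 1913 nt after abamectin and 1687, 1811 and 1685 nt in the controls, with no overlap. In c30435.graph_c0 it was 2228, 2513 and 2617 nt and 2992, 2607 and 3002 nt, with overlap at control 5. In c23309.graph_c1 it was 6423, 6856 and 6292 nt and 5664, 4954 and 7289 nt, and the groups overlapped. For such members the size of the difference depends on the unit: the ratio of abamectin to control means of c30435.graph_c0 was 1.11 in CPM and 1.28 in FPKM.

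The next 100 unigenes in rank gave a similar number of calls, 1 higher and 3 lower after abamectin in edgeR's quasi-likelihood test, as in the 100 members. By sign of the log2 fold change, 65 of the 100 members and 45 of the next 100 were higher after abamectin, against 48.7% of all tested unigenes. The median log2 fold changes were 0.16 and -0.04. This difference was not tested.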

How the data were processed

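Each of the 6 deposited tables lists a read count and an FPKM per unigene, per the file headers. Bowtie 1.1.1 was used, per the submitters' processing notes; how the unigenes were assembled, counted and filtered is not given in the sources used here. Per the labels' protocols, Trizol RNA entered Illumina library preparation. Repeated rows (2586 to 2670 per table, all with identical values) and 1 broken identifier per table were dropped.

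The members and all tests were chosen with earlier results of these data known. The 100 unigenes with the highest mean CPM were taken. The counts of all 55272 unigenes entered edgeR 4.0.16 (R 4.3.3): filterByExpr, which kept 10204 including all 100 members, TMM scaling, a quasi-likelihood test of abamectin against control (two-sided), Benjamini-Hochberg adjustment over all tested unigenes and a threshold of 0.05. SE was derived from the F statistic. The edgeR, DESeq2 and limma-voom fits were tried on simulated counts with known changes, where DESeq2 made the most false calls. DESeq2 first failed the limit set there on false calls, and the limit was then loosened for DESeq2 only. Members named in the text were those of component c30159, the 10 highest, those called, the 5 largest changes in each direction without overlap, the 4 with the largest spread within each group, the 3 steadiest, the 3 longest, the 3 shortest and 3 on each side of the rule's edge. Pairs, effective-length cases and members differing between controls 5 and 6 were picked after their values were seen. Alternatives were other scalings, filters, DESeq2 1.42.0, limma-voom (limma 3.58.1), c30159 left out, other choices of members and each library left out. Shares and ratios were computed with Python 3.11.15.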

Additional observations from a re-analysis of the deposited data

How the results depend on the processing

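The members called (1 higher, 3 lower) were 2 and 4 with scaling by library size alone, against 2.02% and 1.78% of all tested unigenes. They were 13 and 5 with no filter (2.41% and 1.36%), and 12 and 7 with DESeq2 (6.29% and 7.58%). The filter of 5 CPM and limma-voom called 0 lower, with 13 and 12 lower at unadjusted p under 0.05. Over all tested unigenes they called 1.44% and 1.25% lower. Leaving out 1 library gave 0 to 15 higher and 0 to 5 lower. Without control 5 it was 11 and 4, against 10.1% and 5.71% of all tested unigenes, and without control 6 it was 15 and 5, against 5.51% and 11.3%. Where these were 0, 11 to 13 were higher and 6 to 7 lower before adjustment (edgeR, p under 0.05). The fits without 1 library and with 0 members higher called 0.0185% to 0.194% of all tested unigenes higher. Those with 0 members lower called 0.0278% to 0.272% of all tested unigenes lower. Choosing members by median CPM gave 1 lower and by FPKM 5 lower. The 48801 unigenes of the unfiltered fit had a median log2 fold change of 0.66, against -0.015 over the tested unigenes of the main fit. In abamectin 2, 33241 unigenes had a count, against 20001 to 23441 in the other libraries. The part of this in the unfiltered fit was not tested.

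The 28 members without overlap (28.9% of all tested unigenes) became 29 to 51 when 1 library was left out, where the share of all tested unigenes was 31.5% to 51.2%. Without abamectin 1 it was 51 members against 37.6%, without control 5 it was 43 against 51.2%, and without control 6 it was 44 against 48.8%. The share difference outside c30159 (1.98 percentage points, abamectin minus control) was 0.308 with members chosen by FPKM and 1.62 to 2.56 with 1 library left out. For all 100 it was -1.08 and ran from -3.16 to 1.25.

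Among the 28 members picked by the naming rule signs turned in 9, and among the others named in the text in c23341.graph_c0 (-0.16 to 0.37). None of these passed in the main comparison, and c30519.graph_c0 passed with no filter (edgeR adjusted p = 0.00449). The log2 fold change ran over these ranges with 1 library left out: -0.056 to 0.36 in c30518.graph_c0, -0.030 to 1.22 in c23342.graph_c0, -0.049 to 1.14 in c30519.graph_c0, -0.42 to 1.103 in c30259.graph_c2, -0.19 to 0.44 in c12842.graph_c0, -0.44 to 0.93 in c29680.graph_c3, -0.026 to 0.55 in c30520.graph_c0 and -0.13 to 0.17 in c29381.graph_c0. For c12842.graph_c0 it was -0.0037 with the filter of 5 CPM. For c29381.graph_c0 it was 0.0081 with library size alone, 0.055 with no filter and 0.0066 with limma-voom. For c12970.graph_c0 it was 0.041 with no filter. Causes were not tested. No paired analysis was possible because replicate numbers 1 to 3 and 4 to 6 are not shared between groups.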
